A study of Homo sapiens with 8 samples.

Results

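The COPI coat, the COPII coat and the V-ATPase proton pump were followed guide by guide in a genome-wide knockout screen for Serpin B5 protein. They were represented by 35 genes, chosen by symbol from the 19114 genes of the deposited table: 11 of COPI, 11 of COPII and 13 of the V-ATPase. These genes had 140 of the 77441 guides in the table, 4 for each gene. A single guide, guide 3 of ATP6V0D1, was at 0 in all libraries and was left out, so that 139 guides were analysed. None of the 35 genes had a guide in the smaller tables for transcription factors, which were not used further.

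The screen used AsPC-1, an established line of human pancreatic ductal adenocarcinoma (PDAC), expressing Cas9 and infected with the Brunello guide library. On day 8, all cells were fixed in methanol, stained for Serpin B5 and sorted into LOW, BULK and HIGH bins by the antibody signal. SERPINB5 was used by the study as a gene that needs the transcription factor KLF5, and the screen asked which knockouts change its protein level. The bins came from 1 cell line and 1 pooled infection, each gave 1 library, and BULK held most of the cells while LOW and HIGH were the narrower extremes. With no replicate library the differences between bins had no replicate check, and no p-value is given.

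COPI and COPII are protein coats that bud transport vesicles in opposite directions between the endoplasmic reticulum (ER) and the Golgi. COPII carries newly made proteins out of the ER, and COPI returns ER residents and escaped machinery from the Golgi and moves enzymes between Golgi cisternae. Each coat is switched on by a small GTPase, ARF1 for COPI and the SAR1 proteins for COPII, which needs an exchange factor to load GTP. The V-ATPase is a rotary pump that acidifies lysosomes, endosomes and the Golgi, with a cytosolic V1 sector that splits ATP and a membrane V0 sector that passes protons. Serpin B5, also called maspin, belongs to the serpins that are mostly kept inside the cell. The results below are guide abundances in sorted cells, not measurements of transport, of pH or of secretion.

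A guide's ratio was log2 of its scaled count in the bin named first over that in the bin named second, and a gene's score was the mean ratio of its guides. A positive LOW over HIGH score therefore means that cells carrying the knockout were richer in the LOW bin, where Serpin B5 was low. Errors are SDs over the guides of a gene, which share a target and are not replicate experiments. A gene was called when its score passed 2-fold, which is 1 on the log2 scale, with all guides of one sign. The bin labels were checked with the sorted protein and its factor. SERPINB5 ranked 1 of 19113 scored genes with a LOW over HIGH score of 7.08 ± 1.29 (SD, n = 4 guides), and KLF5 ranked 2 with 4.70 ± 1.19 (SD, n = 4 guides).

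The libraries held 102155005 counts in LOW, 96310376 in BULK and 90421905 in HIGH. The analysed guides of the 35 genes had 144 to 2611 counts in LOW, 106 to 2950 in BULK and 94 to 2805 in HIGH. Counting error alone gave a guide's LOW over HIGH ratio an SE of 0.0392 to 0.179, with a median of 0.0797. The SD over the guides of one of these genes was larger, with a median of 0.28. Among 994 non-targeting control guides the SD was 0.16 in LOW over HIGH, 0.11 in LOW over BULK and 0.14 in HIGH over BULK. By these medians, guides of a gene differed by more than counting error.

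By their median, COPI knockouts were richer in the LOW bin. The median LOW over HIGH score was 0.67 for the 11 COPI genes, -0.13 for the 11 COPII genes and -0.11 for the 13 V-ATPase genes, against 0.00 for all 19113 genes. Without the guide farthest from 0 in each gene, the COPII median turned to 0.05, so its direction was not settled, and that of the V-ATPase was -0.05. The score was above 0 for 9 of 11 COPI genes, 5 of 11 COPII genes and 6 of 13 V-ATPase genes. Past 2-fold, 1 of the 35 genes was called richer in LOW, the ARF1 exchange factor GBF1, where 1.03% of all genes were called. None was called richer in HIGH, where 0.476% of all genes were. At the lower threshold of 0.5 on the log2 scale, which is 1.41-fold, 7 genes were called richer in LOW, all of COPI, against 2.7% of all genes. At this threshold 1 gene was called richer in HIGH, the V-ATPase accessory subunit ATP6AP1, against 1.72% of all genes. The 7 were GBF1, COPA, COPZ1, COPB1, ARCN1, COPE and COPB2. COPA and COPZ1, both at 0.94, were the genes nearest to the 2-fold threshold from below.

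The same split was seen for single guides, set against the central 95% of the control guides. In LOW over HIGH, 34 of the 139 guides lay above that interval, while 12.2% of all targeting guides did. Of these 34, 25 were among the 44 COPI guides, 4 among the 44 COPII guides and 5 among the 51 V-ATPase guides. Below the interval lay 31 guides, against 13.6% of all targeting guides. They were 3 COPI, 12 COPII and 16 V-ATPase guides. COPI guides were thus mostly on the LOW side, and the V-ATPase guides outside the interval were mostly on the HIGH side.

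GBF1, on chromosome 10 (102245371 to 102382899, plus strand, hg38), encodes the guanine nucleotide exchange factor that loads ARF1 at the early Golgi. Guide 1 of GBF1 had 1849 raw counts in LOW, 1115 in BULK and 834 in HIGH. Guide 2 had 1104, 636 and 448 counts in the same order. Guide 3 had 1644, 1169 and 844 counts. Guide 4 had 753, 257 and 101 counts, the steepest fall of the set. All guides were highest in LOW, intermediate in BULK and lowest in HIGH. Their LOW over HIGH ratios were 0.96, 1.11, 0.77 and 2.66, each above the control interval, and the score was 1.37 ± 0.87 (SD, n = 4 guides), or 2.59-fold, at rank 112. Without guide 4, the guide farthest from 0, the score was 0.95 and GBF1 was no longer past 2-fold. The score was 0.81 ± 0.45 in LOW over BULK and -0.57 ± 0.43 in HIGH over BULK (SD, n = 4 guides), so GBF1 was shifted away from BULK in both extremes and in opposite directions.

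ARF1, on chromosome 1 (228082708 to 228099212, plus strand, hg38), is the GTPase that GBF1 loads and that recruits the COPI coat to membranes. Its LOW over HIGH score was -0.02 ± 0.28 (SD, n = 4 guides), with ratios of 0.18, -0.20, 0.25 and -0.31. Against BULK the same guides were raised in both extremes. The LOW over BULK score was 0.45 ± 0.22 and the HIGH over BULK score 0.47 ± 0.23 (SD, n = 4 guides). All 4 guides were above 0 in both contrasts, 4 above the control interval in LOW over BULK and 3 in HIGH over BULK. The GTPase and its exchange factor thus had unlike profiles over the bins, with ARF1 lowest in BULK and GBF1 falling from LOW to HIGH.

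The COPI coat itself, called coatomer, is a heptamer that assembles on membranes as 1 unit. Its alpha, beta-prime and epsilon subunits, encoded by COPA, COPB2 and COPE, form the cage-like outer part. COPA had a LOW over HIGH score of 0.94 ± 0.41 (SD, n = 4 guides) at rank 235, and all 4 of its guides lay above the control interval. COPE scored 0.67 ± 0.34 (SD, n = 4 guides), again with 4 guides above the interval. COPB2 scored 0.59 ± 0.38 (SD, n = 4 guides), with 3 of 4 above it. No guide of these outer subunits had a ratio below 0.

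The beta, delta, gamma and zeta subunits form the part that resembles clathrin adaptors and holds cargo. COPB1, encoding beta-COP, scored 0.77 ± 0.79 in LOW over HIGH (SD, n = 4 guides). ARCN1, encoding delta-COP, scored 0.69 ± 0.44 (SD, n = 4 guides). Gamma- and zeta-COP each have a pair of paralogous genes. COPG1 scored 0.52 ± 0.68 and COPG2 0.04 ± 0.37 (SD, n = 4 guides each). COPZ1 scored 0.94 ± 0.72 and COPZ2 -0.09 ± 0.15 (SD, n = 4 guides each). Without the guide farthest from 0 in each gene, COPG1 was at 0.21 and COPG2 at 0.22, so the difference within this pair rested on single guides, while COPZ1 was at 0.61 and COPZ2 at -0.02. With all guides, the coatomer genes outside these suffix 2 paralogs scored from 0.52 to 0.94. COPG1 had 3 of 4 guides above 0 and so was not called at 0.5. The coding sequences of COPG1 and COPG2 were identical at 73.6% of 2604 aligned bases and those of COPZ1 and COPZ2 at 70.8% of 531, in the GENCODE annotation.

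Guides of the same COPI gene often disagreed in size, which set the large SDs. The guide counts of COPB1, COPG1 and COPZ1 in the following sentences were chosen for display after their values were seen. COPB1 guides 1 and 2 had 466 and 755 counts in LOW against 151 and 233 in HIGH, with ratios of 1.41 and 1.49. COPB1 guides 3 and 4 had 1796 and 552 counts in LOW against 1430 and 479 in HIGH, with ratios of 0.14 and 0.02, inside the control interval. The gene's score was thus an average over a shifted and a flat pair of guides. COPG1 guide 3 had 613 counts in LOW, 314 in BULK and 196 in HIGH, a LOW over HIGH ratio of 1.44, whereas guide 4 had 2211, 2029 and 1984 counts, a ratio of -0.03. COPZ1 guide 2 had 610, 392 and 137 counts, a ratio of 1.93, and COPZ1 guide 4 had 764, 652 and 573 counts, a ratio of 0.23. In COPB1 and COPG1 the flat guides included the most abundant guide of the gene.

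COPA guides, whose counts were likewise chosen for display after their values were seen, were more even. Guide 1 had 1027 counts in LOW, 767 in BULK and 583 in HIGH, and guide 2 had 559, 299 and 174. Guide 3 had 324, 167 and 183 counts, and guide 4 had 611, 313 and 258. All were highest in LOW, and 3 of 4 were lowest in HIGH. COPZ2, the lowest COPI gene, had guides of 2209, 2611, 1816 and 2120 counts in LOW, listed from guide 1 to guide 4. The same guides had 2017, 2555, 1655 and 2342 counts in BULK and 2067, 2805, 1526 and 1925 in HIGH. Its ratios in LOW over HIGH ran from -0.29 to 0.07, with 1 of 4 above 0, and no common order of the bins was seen.

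Set against BULK, the COPI shift lay mainly in the LOW bin. In LOW over BULK the median COPI score was 0.49, with 9 of 11 genes above 0, and in HIGH over BULK it was -0.04, with 4 of 11 above 0. These ratios share the BULK library with each other and the LOW and HIGH libraries with LOW over HIGH, so they are not independent of it. In LOW over BULK none of the 35 genes was called past 2-fold in either direction, where 0.0785% of all genes were called richer in LOW and 0% richer in BULK. At 0.5, 5 were called richer in LOW, all of COPI, against 0.947% of all genes, and none richer in BULK, against 0.0262%. COPE led with 0.82 ± 0.14 at rank 43, GBF1 was at 0.81 ± 0.45 and rank 45, and COPA at 0.72 ± 0.26 and rank 69 (SD, n = 4 guides each). ARCN1 scored 0.69 ± 0.28 and COPB2 0.60 ± 0.26 (SD, n = 4 guides each). COPE, whose guides ran from 0.66 to 1.01, had the tightest set of these. Its guide 1 had 415 counts in LOW, 193 in BULK and 233 in HIGH.

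The remaining COPI genes in LOW over BULK were COPB1 at 0.49 ± 0.41, COPZ1 at 0.44 ± 0.31 and COPG1 at 0.44 ± 0.40 (SD, n = 4 guides each). COPG2 was at 0.00 ± 0.18 and COPZ2 at -0.04 ± 0.13 (SD, n = 4 guides each). Of the 139 guides, 60 lay above the control interval in LOW over BULK, against 15.2% of all targeting guides, and 15 below it, against 9.26%. COPI contributed 32 of its 44 guides to those above and 2 to those below. In LOW over HIGH 25 COPI guides were above the interval, but the upper limits differed, 0.17 in LOW over BULK and 0.33 in LOW over HIGH. The 2 counts are thus not on 1 scale. COPI guides above 0 numbered 40 in LOW over BULK and 37 in LOW over HIGH, and the median COPI scores were 0.49 and 0.67.

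In HIGH over BULK none of the 35 genes was called past 2-fold, where 0.319% of all genes were called richer in HIGH and 0.277% richer in BULK. At 0.5, GBF1 was called richer in BULK, against 1.31% of all genes, and ATP6AP1 richer in HIGH, against 1.36%. Above the control interval lay 48 of the 139 guides, against 15.4% of all targeting guides, and 14 lay below, against 9.32%. The COPI genes split here. GBF1 at -0.57, COPZ1 at -0.50, COPB1 at -0.28 and COPA at -0.22 were lower in HIGH than in BULK, ARCN1 at -0.01 and COPB2 at 0.01 were level, and COPE at 0.15 and ARF1 at 0.47 were higher. COPG1 at -0.08, COPG2 at -0.04 and COPZ2 at 0.05 lay near 0. By the sign of the score alone, 6 of 11 COPI genes were above BULK in LOW and below it in HIGH, which 24.8% of all genes were. The 6 include ARCN1, level in HIGH over BULK, and COPG1, near 0 there with 3 of 4 guides above 0.

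Apart from SEC16A, the COPII genes scored from -0.31 to 0.16 in LOW over HIGH. The lowest, SEC23B and SEC13, were at ranks 869 and 906 from the bottom of 19113 genes. SEC16A, on chromosome 9 (136440096 to 136483759, minus strand, hg38), encodes the scaffold that organises ER exit sites. It had the highest COPII score in LOW over HIGH, 0.56 ± 0.74 (SD, n = 4 guides), and was not called at 0.5 because 1 guide was below 0. Guide 2 of SEC16A had 444 counts in LOW, 221 in BULK and 124 in HIGH, a ratio of 1.62. Guide 3 had 469, 367 and 293 counts, and guide 4 had 353, 289 and 267. Guide 1 of SEC16A had 706, 737 and 654 counts, a ratio of -0.07. The score thus rested mostly on guide 2, and without it was 0.21. SEC16A scored 0.31 ± 0.44 in LOW over BULK and -0.25 ± 0.32 in HIGH over BULK (SD, n = 4 guides).

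SEC23 and SEC24 form the inner COPII layer, SEC24 proteins choosing the cargo and SEC23 proteins speeding GTP hydrolysis by SAR1. SEC23A scored 0.10 ± 0.20 in LOW over HIGH and SEC23B, the lowest COPII gene, -0.31 ± 0.31 (SD, n = 4 guides each). Guide 1 of SEC23B had 2589 counts in LOW, 2950 in BULK and 2533 in HIGH, and guide 2 had 470, 566 and 519. Guide 3 of SEC23B had 433, 617 and 639 counts, a ratio of -0.74, and guide 4 had 1417, 1250 and 1262. For SEC23B the difference lay against BULK in the LOW bin, at -0.27 ± 0.28, and its HIGH over BULK score was 0.04 ± 0.12 (SD, n = 4 guides). Coding sequences of the SEC23 pair were identical at 75.5% of 2294 aligned bases.

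The cargo adaptors come in similar pairs. SEC24A scored -0.13 ± 0.66 and SEC24B -0.25 ± 0.17 in LOW over HIGH (SD, n = 4 guides each), with 67.8% of 3258 aligned coding bases identical. SEC24C scored -0.16 ± 0.22 and SEC24D 0.16 ± 0.20 (SD, n = 4 guides each), with 66.3% of 3054 aligned bases identical. The guides of SEC24A did not share a direction, running from -0.88 for guide 4, with 333 counts in LOW and 543 in HIGH, to 0.73 for guide 3, with 621 and 327. SEC24B had no guide above 0.

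In the outer COPII cage, SEC31A scored 0.11 ± 0.09 and SEC13 -0.30 ± 0.23 in LOW over HIGH (SD, n = 4 guides each). SEC13 also belongs to the nuclear pore and to the GATOR2 complex of nutrient sensing. Its shift lay in the HIGH bin. In HIGH over BULK SEC13 scored 0.35 ± 0.20 (SD, n = 4 guides) with all 4 guides above the control interval, and in LOW over BULK 0.05 ± 0.22. The GTPases SAR1A and SAR1B scored -0.17 ± 0.20 and 0.03 ± 0.28 in LOW over HIGH (SD, n = 4 guides each), and their coding sequences were identical at 77.8% of 594 aligned bases. The SAR1A guides had mean scaled counts of 1770 in LOW, 1758 in BULK and 1946 in HIGH, and those of SAR1B 572, 611 and 583.

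Across COPII, the median score was -0.03 in LOW over BULK and 0.00 in HIGH over BULK, and no COPII gene was called in any contrast at either threshold. Above the control interval lay 4 of 44 COPII guides, or 9.09%, in LOW over BULK and 11 of 44, or 25%, in HIGH over BULK. Of all targeting guides, 15.2% and 15.4% lay above it. Below it lay 9, or 20.5%, and 3, or 6.82%, against 9.26% and 9.32% of all targeting guides. The highest and lowest COPII scores were 0.31 for SEC16A and -0.27 for SEC23B in LOW over BULK, and 0.35 for SEC13 and -0.25 for SEC16A in HIGH over BULK. The 3 paralog families of SEC23, SEC24 and SAR1 were named in full, and none of their 8 genes had a LOW over HIGH score of 0.5 or more in either direction. A gene whose paralog remains intact is tested here singly, so these values do not bear on the loss of both copies.

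By the sign of the gene score, most V-ATPase genes had another profile, above BULK in both extremes. Of the 13 genes, 11 scored above 0 in LOW over BULK and in HIGH over BULK alike, whereas 23.7% of all genes did. The exceptions were ATP6V1G1, below BULK in both, and ATP6V0B, below in LOW and above in HIGH. Some of the 11 were near 0 in 1 extreme, with guides on both sides. In LOW over BULK ATP6AP2 was at 0.01 with 1 of 4 guides above 0, and ATP6AP1 at 0.04 with 2 of 4. In HIGH over BULK ATP6V1E1 was at 0.06 with 2 of 4. By sign, 3 of the 11 COPI genes were above BULK in both extremes, ARF1, COPE and COPB2, and 2 of the 11 COPII genes, SEC13 and SEC31A. Of these, COPB2 was at 0.01 in HIGH over BULK with 1 of 4 guides above 0, and SEC31A at 0.00 with 2 of 4. Both LOW over BULK and HIGH over BULK have BULK as the denominator, so a low BULK count moves both up. The median V-ATPase score was 0.08 in LOW over BULK and 0.27 in HIGH over BULK. Above the control interval lay 24 of 51 V-ATPase guides in LOW over BULK and 26 of 51 in HIGH over BULK. Of all targeting guides, 15.2% and 15.4% did. Below it lay 4 and 1 V-ATPase guides, against 9.26% and 9.32% of all targeting guides.

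Within the V1 sector, ATP6V1A and ATP6V1B2 encode the catalytic and the nucleotide-binding B subunit of the ATP-splitting ring. ATP6V1A scored -0.12 ± 0.13 in LOW over HIGH, 0.24 ± 0.20 in LOW over BULK and 0.36 ± 0.20 in HIGH over BULK (SD, n = 4 guides). ATP6V1B2 had the highest V-ATPase score in LOW over HIGH, 0.20 ± 0.44 (SD, n = 4 guides). Guide 1 of ATP6V1B2 had 225 counts in LOW, 145 in BULK and 115 in HIGH, and guide 2 had 603, 342 and 415. Guide 3 of ATP6V1B2 had 404, 285 and 407 counts, and guide 4 had 144, 132 and 137. LOW exceeded HIGH in raw counts for guides 1, 2 and 4 of this gene. After scaling for the smaller HIGH library the ratio was 0.76 for guide 1, 0.35 for guide 2, -0.19 for guide 3 and -0.11 for guide 4. Its scores were 0.43 ± 0.29 in LOW over BULK and 0.23 ± 0.35 in HIGH over BULK (SD, n = 4 guides).

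The other V1 genes encode the stalks and rotor that join the ring to the membrane sector, and the regulatory H subunit. In LOW over HIGH, ATP6V1C1 scored 0.07 ± 0.27, ATP6V1D 0.01 ± 0.32 and ATP6V1E1 0.02 ± 0.15 (SD, n = 4 guides each). ATP6V1F scored -0.12 ± 0.27, ATP6V1G1 0.09 ± 0.65 and ATP6V1H -0.11 ± 0.24 (SD, n = 4 guides each). The 8 V1 genes thus lay between -0.12 and 0.20, within about 1 SD of their guides. Against BULK, ATP6V1H was raised in both extremes, 0.33 ± 0.29 in LOW and 0.44 ± 0.43 in HIGH, as was ATP6V1D, 0.27 ± 0.25 in LOW and 0.26 ± 0.23 in HIGH (SD, n = 4 guides each). The median over the V1 genes was 0.22 in LOW over BULK and 0.20 in HIGH over BULK. ATP6V1G1 had guides that went apart: guide 2 had 223 counts in LOW and 94 in HIGH, a ratio of 1.03, while the ratios of the other guides ran from -0.41 to 0.01.

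The 5 genes followed here from the V0 sector and the accessory subunits leaned to the HIGH bin. All 5 of these genes were above 0 in HIGH over BULK, from 0.27 for ATP6AP2 to 0.56 for ATP6AP1. Of their 19 guides 14 lay above the control interval, against 15.4% of all targeting guides, and none below, against 9.32%. In LOW over HIGH 4 of the 5 genes were below 0, and the median was -0.26. V0 subunit genes outside the 35 ran from -0.25 for ATP6V0E2 to 0.22 for ATP6V0A1 in HIGH over BULK, so the lean is not stated for the whole sector. ATP6V0C and ATP6V0B encode proton-carrying ring subunits. ATP6V0C scored 0.03 ± 0.13 in LOW over HIGH, with 0.36 ± 0.19 in LOW over BULK and 0.34 ± 0.18 in HIGH over BULK (SD, n = 4 guides). ATP6V0B scored -0.47 ± 0.31 in LOW over HIGH with all 4 guides below the control interval, -0.03 ± 0.12 in LOW over BULK and 0.44 ± 0.36 in HIGH over BULK (SD, n = 4 guides). ATP6V0D1, the subunit that couples the ring to the central stalk, scored -0.24 ± 0.24 in LOW over HIGH (SD, n = 3 guides).

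ATP6AP1, on chromosome X (154428633 to 154436516, plus strand, hg38), encodes an accessory subunit needed to assemble the pump. It was the lowest of the 35 genes in LOW over HIGH, -0.51 ± 0.12 (SD, n = 4 guides), at rank 343 from the bottom. Guide 1 of ATP6AP1 had 744 counts in LOW, 536 in BULK and 1027 in HIGH, and guide 2 had 304, 320 and 383. Guide 3 of ATP6AP1 had 425, 469 and 545 counts, and guide 4 had 1009, 856 and 1136. Every guide was highest in HIGH, and the LOW over HIGH ratios of -0.65, -0.51, -0.54 and -0.35 were all below the control interval. In HIGH over BULK the score was 0.56 ± 0.33 with 4 of 4 guides above the interval, and in LOW over BULK 0.04 ± 0.28 (SD, n = 4 guides). ATP6AP2, known as the prorenin receptor, scored -0.26 ± 0.25 in LOW over HIGH and 0.27 ± 0.07 in HIGH over BULK (SD, n = 4 guides).

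Most of these genes had guides of low abundance in every bin. By the mean scaled count of their guides, 24 of the 35 genes fell among the 4779 least abundant of the 19113 scored genes: 8 of COPI, 5 of COPII and 11 of the V-ATPase. The median of the mean counts was 568 for COPI, 846 for COPII and 679 for the V-ATPase, against 1131 for all genes. Those 4779 genes had a median LOW over HIGH score of 0.03, with 55.9% above 0, and 24.8% of them were above BULK in both extremes. Of them 29.8% were above BULK in LOW and below it in HIGH. Set beside these shares were 11 of 13 V-ATPase genes above BULK in both extremes and 6 of 11 COPI genes above it in LOW and below it in HIGH. These counts go by the sign of the score, and some of the genes were near 0 in 1 of the ratios. Within COPI the LOW over BULK score was higher for genes with fewer counts (Pearson r = -0.63, Spearman rho = -0.54, across 11 genes that share the same libraries and so are not independent). In LOW over HIGH the same values were -0.27 and -0.15 for COPI, -0.44 and -0.28 for COPII and -0.38 and -0.24 for the V-ATPase. Over all 19113 genes they were -0.14 and -0.10, so the coefficients were below 0 in each group. Over 11 to 13 genes that share the same libraries, coefficients of this size do not settle a relation. In LOW over BULK they were -0.45 and -0.31 for COPII and -0.17 and -0.10 for all genes. For the 13 V-ATPase genes in LOW over BULK they were 0.11 and 0.21, the other direction. Guide abundance before infection was not analysed here, and its part in these profiles was not tested.

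Other genes of the 3 pathways and of neighbouring transport steps, 125 in 10 lists, were scored in the same way. NAPA, which encodes alpha-SNAP and helps to take SNARE complexes apart after fusion, was called richer in LOW past 2-fold, at 1.47 ± 0.30 in LOW over HIGH (SD, n = 4 guides). Its list, the 17 genes of ER-Golgi SNAREs and fusion, had a median of -0.10 in LOW over HIGH, with 6 above 0. AP1G1, the gamma subunit of the clathrin adaptor AP-1 at the trans-Golgi, was called richer in HIGH at -1.003 ± 0.05 (SD, n = 4 guides), just past the threshold. No other gene of the 10 lists was called past 2-fold in any contrast. These were single calls among 125 genes, where 1.03% of all genes were called richer in LOW and 0.476% richer in HIGH. The 17 other COPI pathway genes, which are further ARF GTPases, their regulators, KDEL receptors and p24 proteins, had a median of 0.07 in LOW over HIGH, with 10 above 0. TMED10, a p24 cargo receptor that binds coatomer, was called richer in LOW at 0.5, with 0.88 ± 0.30 (SD, n = 4 guides), against 2.7% of all genes. TMED10 and the following genes called at 0.5 were named after their values were seen.

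The 17 other COPII pathway genes, among them the SAR1 exchange factor PREB and cargo receptors such as LMAN1 and SURF4, ran from -0.24 to 0.24 in LOW over HIGH, with none called. PREB was the highest at 0.24. The 20 other V-ATPase subunits and assembly factors ran from -0.34 for WDR7 to 0.38 for ATP6V0E2, with a median of -0.01 and none called at either threshold. Their median was 0.00 in LOW over BULK, with 10 of 20 above 0, and 0.03 in HIGH over BULK, with 12 above 0. By these medians the list was near BULK in both extremes, unlike most of the 13 V-ATPase genes. Many of these subunits are isoforms used in particular tissues. In HIGH over BULK, ARF4 of the COPI list was called richer in BULK at 0.5, with -0.50 ± 0.22 (SD, n = 4 guides), against 1.31% of all genes. In LOW over BULK TMED10 was called richer in LOW at 0.5 with 0.50 ± 0.25, against 0.947% of all genes.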

How the data were processed

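Guides were amplified from genomic DNA of sorted AsPC-1 Cas9 cells by one-step PCR and sequenced. The authors deposited raw counts per guide, without normalization, for 3 genome-wide libraries (LOW, BULK and HIGH, grouped by their titles). The methods name MAGeCK with maximum likelihood estimation, in which negative values mean richer in LOW, the opposite sign to that used here; the counting step is not given in the sources used here. Molecular identifiers are not mentioned, so reads are PCR copies and counting errors understate the true error.

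Counts were scaled by median-ratio size factors over all guides. Guides with a mean scaled count under 30 were left out, which kept 76980 of 77441. Ratios were log2((first + 5)/(second + 5)), centred on the median of targeting guides, and averaged over at least 2 guides per gene with pandas 2.3.3. The script was tested on simulated data. Positions and coding sequences were from GENCODE on hg38, the build the submitters' notes name, and paralogs were aligned with Biopython 1.88.

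The 35 genes, lists, tests and thresholds were chosen with earlier results of these data known. By rule, every member was named, with guide counts for called genes and the highest and lowest gene of each complex, and other pathway genes past 2-fold. Alternatives varied scaling, centring, pseudocount, filter, guide summary and threshold. Guide sequences were not used here, and cut sites are therefore unknown. The 5 libraries of the transcription factor tables were not used. Values of some genes of the pathway lists are not reported here.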

Additional observations from a re-analysis of the deposited data

How the results depend on the processing

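With 1 library per bin, no alternative measures how far a repeated sort would differ. LOW over HIGH scores of the 35 genes were recomputed under 9 alternatives in scaling, centring, pseudocount, filter and guide summary. All 315 moved by less than 1 SD of their guides. For the median over guides and for leaving out a guide, the arithmetic alone keeps a move under 1 SD. The count of 315 is therefore no measure of stability. Without the guide farthest from 0, SEC16A fell from 0.56 to 0.21 and GBF1 from 1.37 to 0.95. The 10 genes with a score of 0.5 or more in either direction kept their sign. The median COPI score stayed between 0.46 and 0.68 in LOW over HIGH and between 0.35 and 0.51 in LOW over BULK, and that of the V-ATPase between 0.24 and 0.31 in HIGH over BULK. Of 81 recomputed medians of a complex 4 changed sign. Without the guide farthest from 0 in each gene, that of COPII was 0.05 in LOW over HIGH and -0.02 in HIGH over BULK. From summed counts, it was -0.02 for COPII and 0.04 for COPI in HIGH over BULK.

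The count of genes past 2-fold in LOW over HIGH, 1 richer in LOW, fell to 0 without the guide farthest from 0 in each gene, since GBF1 then scored 0.95, and was 1 under the other alternatives that kept the 2-fold threshold. GBF1 scored 1.03 from the median over guides and 1.09 from summed counts. At a log2 score of 0.5 the counts were 7 richer in LOW and 1 richer in HIGH for LOW over HIGH, 5 richer in LOW for LOW over BULK, and 1 richer in HIGH and 1 richer in BULK for HIGH over BULK. The guides outside the control interval in LOW over HIGH numbered 31 to 34 above and 30 to 31 below, by alternatives chosen after seeing the data. No paired analysis was possible because the labels give no replicate numbers and each bin has 1 library. Counting SEs of single guides were at most 0.179, below the median SD of 0.28 over the guides of a gene.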

Other observations

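Guides against the TRAPP complexes, tethers and exchange factors for RAB GTPases between the ER and the Golgi, leaned to the HIGH bin. Of 12 TRAPP genes 2 scored above 0 in LOW over HIGH, and the median was -0.44. At a log2 score of 0.5, where 1.72% of all genes were called richer in HIGH, 5 were called: TRAPPC5 at -0.84 ± 0.33, TRAPPC1 at -0.82 ± 0.28, TRAPPC11 at -0.70 ± 0.07 and TRAPPC4 at -0.66 ± 0.27 (SD, n = 4 guides each), and TRAPPC3 at -0.60 ± 0.31 (SD, n = 3 guides). In HIGH over BULK 10 of 12 were above 0, against 48.3% of all genes, with a median of 0.35. The 8 genes of the COG complex, which tethers vesicles within the Golgi, and the 3 of the NRZ tether, which receives COPI vesicles at the ER, had medians of 0.05 and 0.07 in LOW over HIGH, and none was called at 0.5. In the list of clathrin and AP-1, AP1M1, the mu subunit of AP-1, was on the same side as AP1G1 at -0.62 ± 0.27 (SD, n = 4 guides). The 10 genes of that list had a median of -0.09, with 3 above 0. The AP-1 subunits AP1S2 at 0.15 and AP1S3 at 0.14 were among those above 0. These lists share the libraries with all values above, and the genes named from them were chosen after their values were seen.

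Genes that dock the growth-regulating kinase complex mTORC1 at the lysosome went the other way. All 11 scored above 0 in LOW over HIGH, against 50.3% of all genes, with a median of 0.40, and all 11 below 0 in HIGH over BULK, where 48.3% of all genes were above it, with a median of -0.31. Called at 0.5 in LOW over HIGH, where 2.7% of all genes were called richer in LOW, were the Rag GTPases RRAGC at 0.86 ± 0.30 and RRAGA at 0.60 ± 0.39, the RRAGC regulator FLCN at 0.79 ± 0.43 and the Ragulator subunit LAMTOR2 at 0.73 ± 0.21 (SD, n = 4 guides each). The 10 genes of retromer and HOPS, which sort and fuse endosomes, had a median of 0.20 with 8 above 0 and none called. The V-ATPase sits on the same lysosomal membrane, and its 13 genes had a median of -0.11 in LOW over HIGH.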
